A study of Mus musculus with 14 samples.

Results

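The YAP/TAZ target genes described here are 10 genes taken by symbol alone: Cyr61, Ctgf, Ankrd1, Amotl2, Ajuba, Lats2, Axl, Ptpn14, Crim1 and Nuak2. Cyr61 and Ctgf carry the symbols Ccn1 and Ccn2 in the GENCODE M21 mouse annotation, which are used from here on. All 10 were among the 55421 genes listed for the libraries of hairpin 1 and its control, and 9 were among the 17490 genes listed for hairpin 2 and its control. Axl was not analysed in the second set.

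YAP (gene Yap1) and TAZ (gene Wwtr1) are transcriptional co-activators that enter the nucleus when the Hippo kinase cascade is weak and bind DNA through the TEAD factors. The cascade runs from the MST kinases, Stk3 and Stk4, to LATS1 and LATS2, which phosphorylate YAP and TAZ and keep them in the cytoplasm. Several YAP/TAZ targets, such as Lats2, Amotl2 and Ptpn14, themselves restrain YAP and TAZ, so the set holds both outputs and brakes of the pathway. In the intestinal epithelium YAP is best known for its part in regeneration after injury and in tumours that arise from activated Wnt signalling.

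Poly(A) RNA was sequenced from mouse tumor organoids, labelled small intestinal and called APT organoids. Hairpin 1 (3 libraries) and hairpin 2 (4 libraries) carried short hairpin RNAs against exon 4 and exon 9 of Suv4-20h2, listed as Kmt5c, which places methyl groups on lysine 20 of histone H4. Control 1 (3 libraries) and control 2 (4 libraries) carried a control hairpin, and every group, controls included, received 0.5 µg/ml of doxycycline for 4 days to induce the hairpins. The series text calls the hairpins clones. The labels do not state whether the replicates are independent cultures, and the p-values therefore cover the variation among libraries, part or all of which may be technical. Hairpin 1 was compared only with control 1 (set 1) and hairpin 2 only with control 2 (set 2), so the hairpin and the set cannot be told apart.

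Libraries held 9272134 to 26284079 counts. Kmt5c had 53.6, 64.2 and 56.0 CPM (counts scaled to the library total) in hairpin 1 against 72.2, 75.7 and 67.2 CPM in control 1. It had 114, 111, 99.2 and 106 CPM in hairpin 2 against 129, 121, 116 and 128 CPM in control 2. The groups did not overlap in either set, as for 6.34% of all genes tested with hairpin 1 lower and 8.42% with hairpin 2 lower. The adjusted p-values of edgeR's quasi-likelihood test were 0.80 for hairpin 1 and 0.098 for hairpin 2. With the replicate number as a block, that of hairpin 2 was 0.0074, where 20.4% of all genes were called. Among the set 1 libraries, hairpin 1 replicate 1 was unlike the rest. Its summed level of 5 goblet cell markers was 113 CPM, against 922 to 1927 CPM in the others, and that of 5 Paneth cell markers was 56.7 CPM, against 781 to 1986 CPM. Fold changes and list medians of set 1 are therefore given with and without this library. Summed levels of 8 epithelial markers, Epcam and Cdh1 among them, were 4802 to 7251 CPM over all libraries. Of 8 fibroblast markers, Dcn, Lum and Thy1 had no count in set 1. Pdgfrb had 436 counts over set 1, Pdgfra 62, Col1a1 22, and Col1a2 and Col3a1 4 each. In set 2, where Dcn, Lum and Thy1 were not listed, Pdgfra had 1945 counts. In such bulk samples, fewer cells of a type and less RNA per cell cannot be told apart.

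The TEAD factors recognise the core GGAATG, and the stretches that hold it are shown because YAP and TAZ reach DNA through these factors. RefSeq promoter windows (GRCm38.p6) of 300 bases, 250 before and 50 after the transcript start, were matched for 8 of the 10 genes; Ccn2 and Nuak2 are named only. GGAATG on either strand occurred in 8 of these 8 genes and in 8 of their 9 windows, since Lats2 has 2 starts. Among 32851 mouse promoter windows of the same length, 14.7% held it. A match is a run of letters and not a measured binding site. Each sequence below reads 5′ to 3′ on the strand of the gene, with the core in capitals (CATTCC where it lies on the opposite strand) and its distance from the start.
Ccn1, chr3:145650071-145650100, minus strand, -103: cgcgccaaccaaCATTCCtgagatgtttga
Ankrd1, chr19:36120037-36120066, minus strand, -210: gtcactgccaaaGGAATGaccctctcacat
Ankrd1, chr19:36119950-36119979, minus strand, -123: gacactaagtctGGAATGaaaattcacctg
Amotl2, chr9:102717727-102717756, plus strand, -65: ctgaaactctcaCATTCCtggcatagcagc
Ajuba, chr14:54577830-54577859, minus strand, -186: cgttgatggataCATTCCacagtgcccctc
Ajuba, chr14:54577808-54577837, minus strand, -164: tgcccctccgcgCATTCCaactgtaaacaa
Lats2, chr14:57746102-57746131, minus strand, 5: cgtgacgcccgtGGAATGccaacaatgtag
Axl, chr7:25788949-25788978, minus strand, -233: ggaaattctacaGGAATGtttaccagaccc
Ptpn14, chr1:189728110-189728139, plus strand, -146: cctccccggacgCATTCCtggcccgcccag
Crim1, chr17:78200157-78200186, plus strand, -79: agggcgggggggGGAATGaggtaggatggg
Ankrd1 and Ajuba each held 2 copies within their window. The AP-1 motif TGANTCA was in none of the 8 genes' windows, against 7.81% of all windows, and the CArG box bound by SRF was in none, against 1.63%. These counts say only which letters lie in the windows.

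The whole window of Ccn1 (chr3:145649936-145650235, minus strand) is given because Ccn1 was the member whose hairpin 2 and control 2 libraries did not overlap.
Ccn1 promoter window: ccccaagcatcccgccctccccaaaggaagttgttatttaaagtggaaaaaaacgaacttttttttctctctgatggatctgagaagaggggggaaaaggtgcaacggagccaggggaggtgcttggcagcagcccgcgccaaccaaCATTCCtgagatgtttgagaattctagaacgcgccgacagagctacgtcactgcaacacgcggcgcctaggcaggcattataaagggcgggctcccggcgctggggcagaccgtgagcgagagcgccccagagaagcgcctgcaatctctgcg

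The 9 genes covered a wide range of levels. On the scale of CPM per kilobase of exon, which allows genes to be compared, Ajuba had the highest level in control 2 at 56.8 ± 6.52 (SD, n = 4). Amotl2 at 11.5 ± 0.989, Ptpn14 at 10.8 ± 1.15 and Ccn1 at 9.46 ± 0.609 CPM per kilobase followed. The mean ± SD ranges of each neighbouring pair of these 3 overlapped. Crim1 had 6.25 ± 0.643, Nuak2 3.29 ± 0.342 and Lats2 2.24 ± 0.161 CPM per kilobase in control 2. Ccn2 at 1.06 ± 0.518 and Ankrd1 at 0.197 ± 0.0150 CPM per kilobase were the lowest. Hairpin 2 gave the same order of the 9 genes.

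Control 1 had another order, again in CPM per kilobase. Ajuba led at 19.4 ± 1.43 (SD, n = 3), followed by Ccn1 at 6.84 ± 1.71 and Ccn2 at 4.70 ± 1.53. Nuak2 at 3.85 ± 0.825, Amotl2 at 3.52 ± 0.329 and Ptpn14 at 3.07 ± 0.463 CPM per kilobase came next. Crim1 at 2.54 ± 0.715, Ankrd1 at 1.59 ± 0.972 and Lats2 at 0.523 ± 0.0854 CPM per kilobase came last. From Ccn1 to Ankrd1, the mean ± SD ranges of neighbours in this order overlapped. Levels were not tested between sets.

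**Figure D1:**
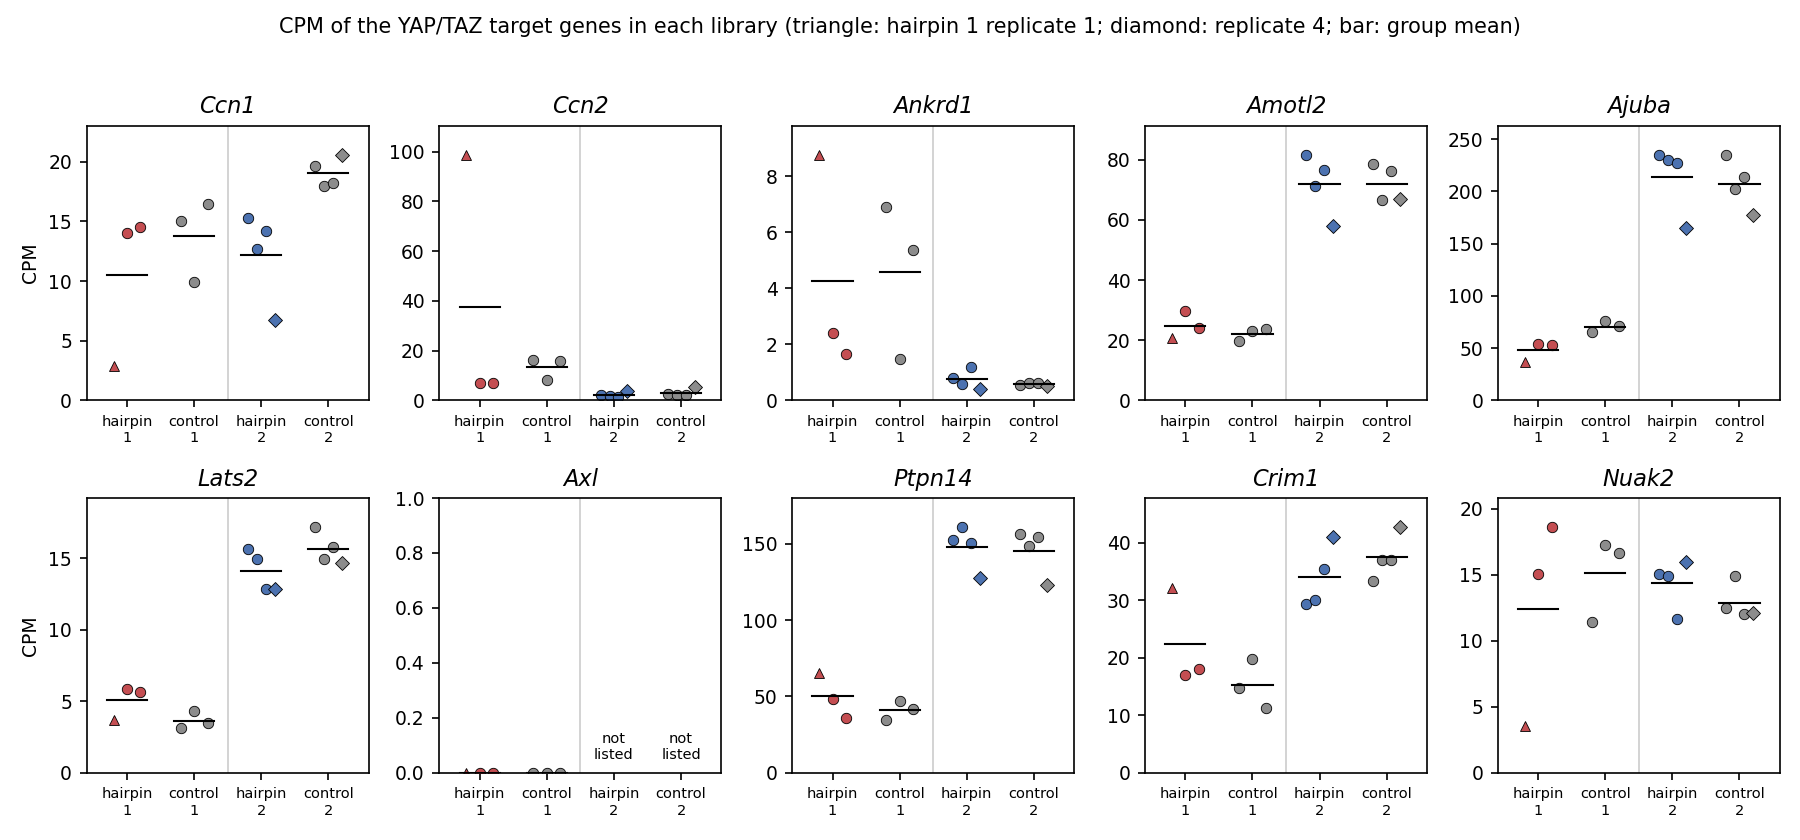
CPM of each YAP/TAZ target gene (vertical axes, linear, each with its own range) in every library of hairpin 1, control 1, hairpin 2 and control 2, with group means as bars, hairpin 1 replicate 1 as a triangle and the replicate 4 libraries as diamonds. Hairpin 1 replicate 1 reaches 98.7 CPM for Ccn2, and for Ccn1 all 4 hairpin 2 libraries lie below all 4 control 2 libraries.

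Ccn1 and Ccn2 encode secreted matricellular proteins that bind integrins and are the outputs most often used to read YAP/TAZ activity. Ccn1 (chr3:145646976-145649981, GRCm38) had 15.3, 12.7, 14.2 and 6.72 CPM in hairpin 2 against 19.7, 18.0, 18.2 and 20.6 CPM in control 2. The groups did not overlap, with the fourth hairpin 2 library lowest. The log2 fold change was -0.63 (95% interval -1.07 to -0.20, SE 0.20), with an edgeR adjusted p of 0.096, so Ccn1 did not pass the threshold of 0.05. It passed with the replicate number as a block, at -0.65 with an edgeR adjusted p of 0.012. Without hairpin 2 replicate 4 the log2 fold change was -0.45 with an edgeR adjusted p of 0.014. Summed epithelial markers moved in the same direction, at 4802 to 5442 CPM in hairpin 2 against 6017 to 6159 CPM in control 2. Of these 8 markers, 3 fell past the threshold, where 4.01% of all genes were called lower. Their part in the Ccn1 value was not tested.

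Ccn1 had 2.89, 14.02 and 14.6 CPM in hairpin 1 against 15.0, 9.90 and 16.5 CPM in control 1. The low value was hairpin 1 replicate 1, and the other hairpin 1 libraries lay inside the control range. The log2 fold change was -0.40 (95% interval -1.77 to 0.97), and 0.05 without that library (-0.59 to 0.68).

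Ccn2 had 98.7, 7.12 and 6.93 CPM in hairpin 1 against 16.0, 8.37 and 15.9 CPM in control 1. Hairpin 1 replicate 1 was thus far above every control and the other hairpin 1 libraries were below every control. With all libraries the log2 fold change was 1.48 (95% interval -0.91 to 3.88) with an edgeR adjusted p of 0.81. Without hairpin 1 replicate 1 it was -0.94 (95% interval -1.71 to -0.17), with an unadjusted p of 0.022 and an adjusted p of 0.24 from edgeR. Its sign therefore rested on that library.

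In set 2 Ccn2 was lower in level, at 2.09, 1.77, 1.30 and 3.73 CPM in hairpin 2 against 2.50, 2.15, 2.25 and 5.25 CPM in control 2. Replicate 4 was the highest library of both groups, and the groups overlapped. The log2 fold change of -0.47 (95% interval -1.29 to 0.36) had an edgeR adjusted p of 0.55. Leaving out the fourth hairpin 2 library gave -0.77 (edgeR adjusted p = 0.18), and leaving out the fourth library of control 2 gave -0.062 (edgeR adjusted p = 0.95). Each hairpin 2 library lay below the control 2 library of the same number. The labels do not state that numbers pair the libraries, and the share of all genes doing so was not counted.

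Ankrd1, an ankyrin repeat protein of muscle and stressed cells that acts in the nucleus, was the least abundant of the 9 genes in set 2 per kilobase. It had 8.76, 2.41 and 1.64 CPM in hairpin 1 against 6.91, 1.47 and 5.38 CPM in control 1. Control 1 alone spanned most of that range, and the groups overlapped. In set 2 it had 0.80, 0.59, 1.19 and 0.41 CPM in hairpin 2 against 0.54, 0.60, 0.61 and 0.52 CPM in control 2. With 49 counts over hairpin 2 and 53 over control 2, its log2 fold change of 0.33 (95% interval -0.33 to 1.00) was poorly determined. The hairpin 1 value was -0.10 (-1.95 to 1.75), and -1.18 (-2.53 to 0.17) without hairpin 1 replicate 1.

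The members described next act on the pathway itself. Ajuba, a LIM domain protein that binds the LATS kinases and limits their activity, had 36.9, 53.8 and 53.1 CPM in hairpin 1 against 65.3, 75.7 and 70.8 CPM in control 1. All 3 hairpin 1 libraries lay below all 3 controls. The log2 fold change was -0.56 (95% interval -1.06 to -0.06), with an unadjusted p of 0.034 and an adjusted p of 0.80 from edgeR. Without hairpin 1 replicate 1 it was -0.40 (-0.79 to -0.02), with an edgeR adjusted p of 0.30. In that replicate the median gene of chromosome 14, where Ajuba and Lats2 lie, was -0.69 on the log2 scale relative to the controls, against 0.07 in both other hairpin 1 libraries. Its part in the Ajuba value was not tested.

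Ajuba in set 2 had 235, 230, 227 and 165 CPM in hairpin 2 against 235, 202, 214 and 178 CPM in control 2. The groups overlapped, and replicate 4 was the lowest library in both. The log2 fold change was 0.05 (95% interval -0.22 to 0.32), so a decrease of the size fitted for hairpin 1 lay outside the interval of hairpin 2. The difference between the hairpins, tested directly over all 14 libraries, was -0.60 with an unadjusted p of 0.021 and an adjusted p of 0.32 from edgeR.

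Lats2, the kinase that phosphorylates YAP and TAZ, had 3.72, 5.83 and 5.66 CPM in hairpin 1 against 3.14, 4.30 and 3.51 CPM in control 1. The first hairpin 1 library lay among the controls and the others above all 3. It had 15.7, 15.0, 12.9 and 12.9 CPM in hairpin 2 against 17.2, 14.9, 15.8 and 14.7 CPM in control 2, where the groups overlapped. The log2 fold changes were 0.47 (95% interval -0.39 to 1.34) for hairpin 1 and -0.14 (-0.36 to 0.08) for hairpin 2. Without hairpin 1 replicate 1, the hairpin 1 value was 0.65 (-0.14 to 1.45) with an edgeR adjusted p of 0.40.

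Amotl2 and Ptpn14 both restrain YAP: Amotl2 is a motin that holds it at junctions and actin, and Ptpn14 is a tyrosine phosphatase that binds it in the cytoplasm. Amotl2 had 20.8, 29.6 and 24.0 CPM in hairpin 1 against 19.8, 22.9 and 23.7 CPM in control 1. It had 81.6, 71.3, 76.8 and 58.0 CPM in hairpin 2 against 78.5, 66.5, 76.4 and 67.0 CPM in control 2. The groups overlapped in both sets. Its log2 fold change in hairpin 1 was 0.16 (95% interval -0.39 to 0.72), and 0.27 (-0.22 to 0.77) without replicate 1. Its log2 fold change in hairpin 2 was -0.0026, with a 95% interval of -0.24 to 0.23.

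Ptpn14 had 65.5, 48.6 and 36.1 CPM in hairpin 1 against 34.7, 47.1 and 41.5 CPM in control 1. In set 2 it had 152, 161, 150 and 127 CPM in hairpin 2 against 156, 148, 154 and 123 CPM in control 2. Replicate 4 was lowest in both groups of set 2, and the groups overlapped in both sets. With a log2 fold change of 0.02 in hairpin 2 and a 95% interval of -0.18 to 0.23, Ptpn14 was the most narrowly bounded of the 9 genes. The hairpin 1 value was 0.28 (-0.35 to 0.92), and 0.039 (-0.45 to 0.53) without replicate 1.

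Nuak2 is a kinase of the AMPK family, reported as both a target and a promoter of YAP activity. It had 3.55, 15.0 and 18.6 CPM in hairpin 1 against 11.4, 17.3 and 16.7 CPM in control 1. Hairpin 1 replicate 1 was again the low library, and the other hairpin 1 libraries were among or above the controls. It had 15.1, 14.9, 11.7 and 15.9 CPM in hairpin 2 against 12.5, 14.9, 12.1 and 12.1 CPM in control 2. The log2 fold changes were -0.29 (95% interval -1.62 to 1.04) for hairpin 1, 0.15 (-0.45 to 0.76) without replicate 1, and 0.17 (-0.09 to 0.43) for hairpin 2.

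The membrane proteins of the set were Crim1 and Axl. Crim1, a transmembrane protein with cysteine-rich repeats that bind BMPs, had 32.1, 16.9 and 18.0 CPM in hairpin 1 against 14.7, 19.7 and 11.2 CPM in control 1. It had 29.3, 30.0, 35.5 and 41.0 CPM in hairpin 2 against 33.3, 37.0, 37.0 and 42.6 CPM in control 2. Each hairpin 2 library was below the control 2 library of its number, though the labels do not state that numbers pair the libraries. The groups overlapped, and the log2 fold change of -0.15 (95% interval -0.41 to 0.11) had an edgeR adjusted p of 0.54. The hairpin 1 value was 0.55 (-0.28 to 1.39), and 0.20 (-0.43 to 0.83) without replicate 1.

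Axl, the receptor tyrosine kinase for Gas6, had 0 counts in all 3 hairpin 1 and all 3 control 1 libraries. A count of 0 allows up to 3 counts, or 0.131 to 0.168 CPM in the hairpin 1 libraries and 0.174 to 0.177 CPM in the control 1 libraries, counting error only. No fold change is given for it.

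**Figure D2:**
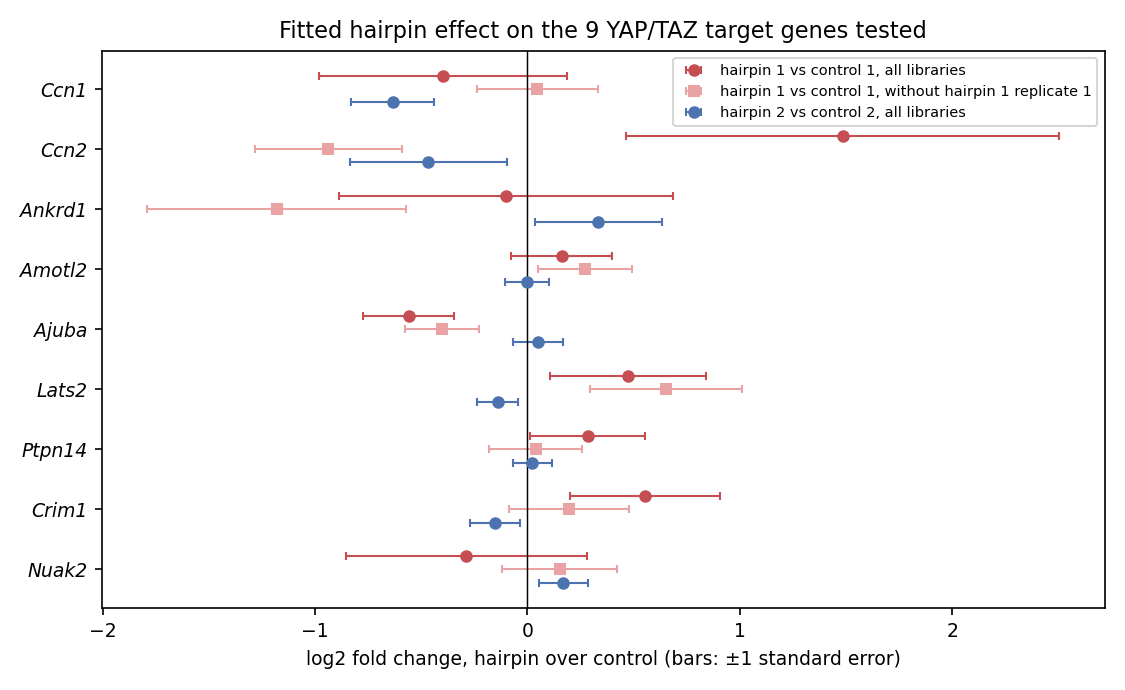
Fitted log2 fold change of hairpin over control (horizontal axis, linear) with bars of 1 standard error for the 9 YAP/TAZ target genes tested: hairpin 1 with all libraries, hairpin 1 without replicate 1, and hairpin 2. Ccn2 is at 1.48 with all set 1 libraries and at -0.94 without hairpin 1 replicate 1, while in hairpin 2 Amotl2 is at -0.0026, Ptpn14 at 0.02 and Ajuba at 0.05.

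Counted over the set, hairpin 1 called 0 of the 9 genes tested at an edgeR adjusted p under 0.05, against 0% of the 13540 genes tested. In simulated counts with the spread of set 1, that fit recovered 0 of 200 genes changed 2-fold. An absent call in set 1 therefore does not show that a gene was unchanged. The adjusted p-values were 0.80 or more, 732 of all genes and 1 of the 9 (Ajuba) had an unadjusted p under 0.05, and DESeq2 called 20 genes, or 0.148%. Of the 8 members with a DESeq2 adjusted p, none was called. Voom with library quality weights called 0.0591% of genes and the model of the 4 groups 1.24%, with none of the 9 among them. The median log2 fold change of the 9 was 0.16, against 0.03 over all genes, with 5 above 0 and 4 below, where 52.5% of all genes were above 0. Only Ajuba had groups that did not overlap, and 6.34% of all genes did so with hairpin 1 lower and 6.5% with it higher. Without hairpin 1 replicate 1, Ccn2 and Ajuba were below and Amotl2 and Lats2 above every control, where 17.6% of all genes were below and 17.5% above. None of the 9 was called then either, and 0.0072% of 13883 genes were.

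Hairpin 2 called 0 of the 9 genes in edgeR, against 6.05% of the 14126 genes tested, with 288 (2.04%) higher and 566 (4.01%) lower. Of the 9, only Ccn1 had an unadjusted p under 0.05. Ccn1 was called in DESeq2 with an adjusted p of 0.026, where 9.53% of all genes were called, and with the replicate block, where 20.4% were. It was also called with voom (17.5% of all genes), without both replicate 4 libraries (16.9%) and without hairpin 2 replicate 4 (9.84%), and not in the model of the 4 groups (0.798%). The median log2 fold change of the 9 was -0.0026, against 0.0050 over all genes, with 4 above 0 and 5 below, where 51.1% of all genes were above 0. Only Ccn1 had groups that did not overlap, and 8.42% of all genes did so with hairpin 2 lower.

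The contrast of hairpin 1 effect minus hairpin 2 effect called 0 of the 9 genes, against 0.412% of 15043 genes in edgeR. Ajuba at -0.60, Lats2 at 0.63 and Crim1 at 0.71 (log2) had an unadjusted p under 0.05 in edgeR. Their edgeR adjusted p-values were 0.32, 0.38 and 0.41. DESeq2 called none of the members, where 398 of 15043 genes were called. Without hairpin 1 replicate 1, Lats2 was called at 0.84 (95% interval 0.35 to 1.33, edgeR adjusted p = 0.044), where 6.26% of 15313 genes were. That call, with the higher value for hairpin 1, rested on leaving the library out, since Lats2 was not called with all libraries. In the fit without hairpin 1 replicate 1, Ankrd1 at -1.49 had an unadjusted p of 0.048 and an adjusted p of 0.22 from edgeR. Ajuba was at -0.41 and Crim1 at 0.39 in that fit, with unadjusted p-values of 0.053 and 0.16. The average of both hairpin effects called 0 of the 9, against 0.977% of genes. Ajuba, at -0.25, was the member with an unadjusted p under 0.05 in that edgeR fit. For the average DESeq2 called none of the members, where 712 of 15043 genes were called. The average without hairpin 1 replicate 1 again called 0 of the 9 in edgeR, against 8.62% of genes. Ajuba was then at -0.16 with an unadjusted p of 0.13. Ccn2 at -0.68 and Lats2 at 0.28 had unadjusted p-values of 0.027 and 0.030, with adjusted p-values of 0.14 and 0.15 from edgeR.

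**Figure D3:**
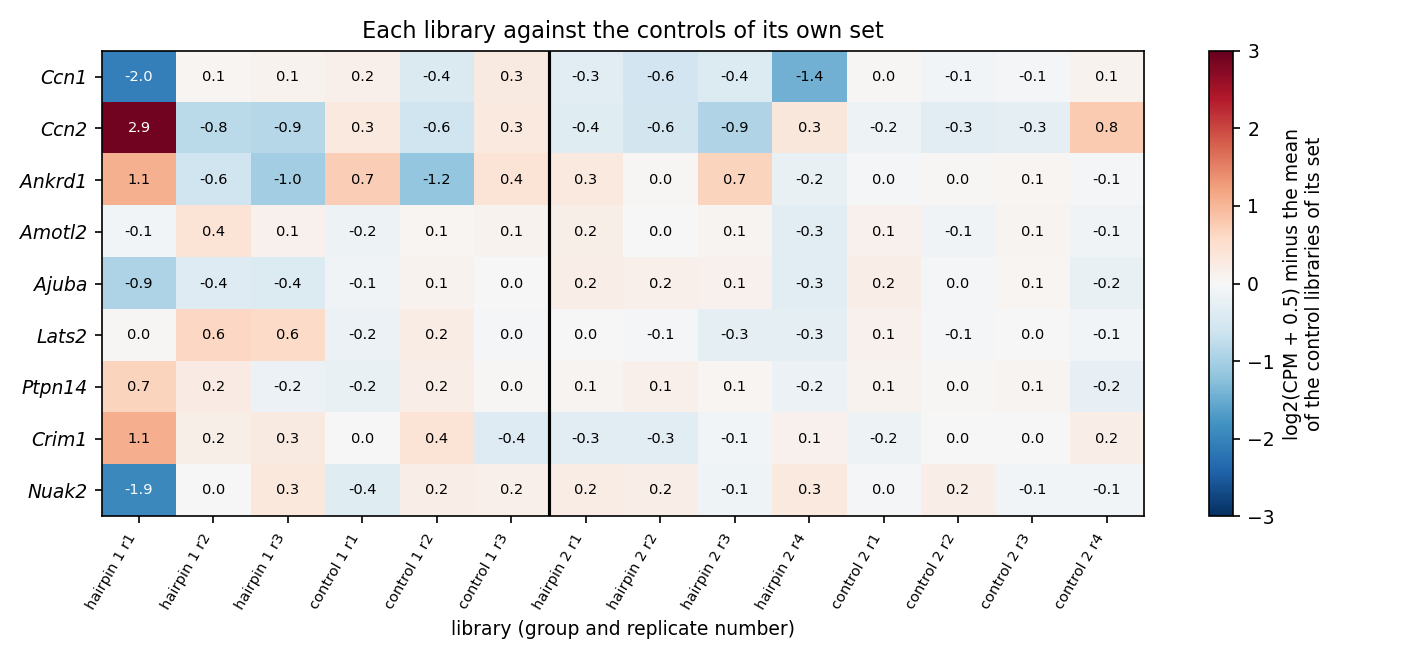
Colour and number give log2(CPM + 0.5) of each YAP/TAZ target gene (rows) in each library (columns, hairpin before control in each set, r for replicate) minus the mean of the control libraries of its set. In hairpin 1 replicate 1, Ccn2 is at 2.9 and Ccn1 at -2.0, and the hairpin 2 row of Ccn1 runs from -1.4 to -0.3.

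Within hairpin 1 replicate 1 the 9 genes went apart from one another. On the log2(CPM + 0.5) scale relative to the mean of control 1, Ccn2 was at 2.89, Crim1 at 1.09, Ankrd1 at 1.07 and Ptpn14 at 0.68. Ccn1 at -2.05, Nuak2 at -1.92 and Ajuba at -0.93 were on the other side of the control mean, with Amotl2 at -0.09 and Lats2 at 0.03 near it. The widely used pair Ccn1 and Ccn2 therefore had opposite signs in the same library.

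Wwtr1, which encodes TAZ, had 174, 38.6 and 40.1 CPM in hairpin 1 against 57.6, 50.6 and 55.6 CPM in control 1. As for Ccn2, the first hairpin 1 library was above and the others below every control. Tead4 had 46.6, 8.08 and 13.8 CPM in hairpin 1 against 15.1, 22.1 and 11.3 CPM in control 1. Tead2 had 34.5, 132 and 114 CPM in hairpin 1 against 93.7, 83.6 and 119 CPM in control 1, with the first hairpin 1 library lowest. Yap1 had 162, 139 and 138 CPM in hairpin 1 against 111, 142 and 122 CPM in control 1, where the groups overlapped.

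None of the 6 factor genes (Yap1, Wwtr1 and Tead1 to Tead4) was called for either hairpin in edgeR. Over all genes, 0% were called for hairpin 1 and 6.05% for hairpin 2. Yap1 had 347, 331, 350 and 264 CPM in hairpin 2 against 333, 323, 330 and 278 CPM in control 2. Wwtr1 had 97.7, 96.2, 102 and 120 CPM in hairpin 2 against 88.9, 86.9, 91.9 and 94.8 CPM in control 2, and every hairpin 2 library was above every control 2 library, as for 6.88% of all genes. Its log2 fold change of 0.20 had an edgeR adjusted p of 0.18, and of 0.015 with the replicate block, where 20.4% of all genes were called. Tead1, Tead2, Tead3 and Tead4 had log2 fold changes of 0.09, -0.14, -0.02 and -0.07 in hairpin 2. Without hairpin 1 replicate 1 the hairpin effects on Wwtr1 differed by -0.63 (edgeR adjusted p = 0.022), lower for hairpin 1, where 6.26% of all genes were called. With all libraries the difference was 0.44 (95% interval -0.75 to 1.62, edgeR adjusted p = 0.80), so its sign and its call rested on leaving that library out.

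Of 22 further genes of the Hippo cascade, 20 were tested in hairpin 2, and 1 was called higher and 0 lower, where 2.04% of all genes were called higher and 4.01% lower. That gene was Amotl1, another motin that binds YAP, with 115, 116, 119 and 111 CPM in hairpin 2 against 94.98, 93.0, 104 and 88.4 CPM in control 2. The log2 fold change was 0.28 (SE 0.06, edgeR adjusted p = 0.024). The median of the 20 was 0.07, with 15 above 0, against a median of 0.0050 and 51.1% above 0 over all genes. With the replicate block, 5 were called higher and 1 lower, where 10.2% and 10.1% of all genes were. In that fit, the kinase genes Lats1 at 0.15 and Taok1 at 0.14, the scaffold Sav1 at 0.18, the LATS cofactor Mob1b at 0.22 and Amotl1 at 0.28 were higher, and the protocadherin Fat1 was lower at -0.26 (log2). The names other than Amotl1 were chosen after their values were seen. The median gene of chromosome 5, where Mob1b lies, was at 0.104 to 0.119 (log2) in the hairpin 2 libraries relative to control 2. That of chromosome 12, where Sav1 lies, was at 0.107 to 0.131. The part of these shifts in the Mob1b and Sav1 values was not tested.

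Hairpin 1 called 0 of 20 Hippo cascade genes in edgeR, with a median of 0.28 and 15 above 0. Over all genes the median was 0.03 and 52.5% were above 0. Without replicate 1 the median of the 20 was -0.05 and 9 were above 0, against -0.02 and 48.0% over all genes. Amotl1 had 27.1, 1.29 and 2.28 CPM in hairpin 1 against 7.15, 4.13 and 4.68 CPM in control 1, so it too was high in the first library and below every control in the others. Without that library the hairpin effects on Amotl1 differed by -1.80 (log2, edgeR adjusted p = 0.0029), lower for hairpin 1, again among 6.26% of all genes called. With all libraries the difference was 0.68 (95% interval -1.36 to 2.73, edgeR adjusted p = 0.82), of opposite sign.

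A further list held 13 other genes of published YAP signatures, of which 10 were tested in hairpin 2. It called 2 higher and 2 lower, where 2.04% and 4.01% of all genes were, with a median log2 fold change of 0.09. F3, tissue factor, had 27.0, 24.2, 31.1 and 20.9 CPM in hairpin 2 against 48.5, 47.4, 48.1 and 46.1 CPM in control 2. All hairpin 2 libraries were below all controls, with a log2 fold change of -0.89 (SE 0.10, edgeR adjusted p = 8.6e-04). Myof, a ferlin of membrane repair, had 103, 108, 126 and 107 CPM in hairpin 2 against 136, 137, 153 and 148 CPM in control 2, and fell by 0.37 on the log2 scale (edgeR adjusted p = 0.016).

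In the opposite direction, Igfbp3, a secreted protein that binds insulin-like growth factors, had 70.5, 61.7, 66.8 and 96.1 CPM in hairpin 2 against 47.8, 44.6, 47.4 and 52.0 CPM in control 2. It rose by 0.62 on the log2 scale (SE 0.13, edgeR adjusted p = 0.017). The RNA-binding protein gene Rbms3 rose by 0.25 (edgeR adjusted p = 0.047), with 187 to 215 CPM in hairpin 2 against 163 to 186 CPM in control 2. Signature genes called in hairpin 2 thus lay on both sides of 0. With the replicate block 3 were called higher and 3 lower, where 10.2% and 10.1% of all genes were.

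Set 1 called 0 of the 9 signature genes tested, with a median log2 fold change of -0.17 and 4 above 0. With the first hairpin 1 library left out it called 0 of 10, with a median of -0.41 and 2 above 0. Over all genes 52.5% were above 0 in the first of these fits and 48.0% in the other. F3 had 157, 27.1 and 13.02 CPM in hairpin 1 against 53.5, 15.1 and 14.2 CPM in control 1, and Myof had 545, 121 and 121 CPM in hairpin 1 against 150, 177 and 120 CPM in control 1. Both were highest in hairpin 1 replicate 1. Igfbp3 had 10 counts over hairpin 1 and 2 over control 1, at most 0.505 CPM in any library.

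SRF and YAP share many cytoskeletal targets, and 12 of 15 such genes were tested in hairpin 2, with 0 called higher and 3 lower, where 2.04% and 4.01% of all genes were. Tpm1, a tropomyosin, had 444, 392, 445 and 386 CPM in hairpin 2 against 506, 509, 509 and 514 CPM in control 2. It fell by 0.29 on the log2 scale (SE 0.06, edgeR adjusted p = 0.022). The actin-binding transgelin gene Tagln2 had 272, 250, 261 and 214 CPM in hairpin 2 against 316, 328, 322 and 281 CPM in control 2, and fell by 0.32 (edgeR adjusted p = 0.047). The myosin light chain gene Myl9 had 28 counts in hairpin 2 against 143 in control 2, and fell by 1.89 (edgeR adjusted p = 0.045). The median of the 12 was -0.16, and with the replicate block 1 was called higher and 6 lower, against 10.2% and 10.1% of all genes. The 4 fibroblast markers listed in set 2 summed to 13.9 to 15.8 CPM in hairpin 2 against 11.3 to 12.7 CPM in control 2, mostly from Pdgfra. Of the 8 on that list, 3 were tested in hairpin 2, with a median log2 fold change of -0.69. Pdgfra was called higher at 0.55 (edgeR adjusted p = 0.0094), and Pdgfrb, at 0.128 CPM in hairpin 2 against 1.44 CPM in control 2 (means, n = 4 each), was called lower at -3.41 (edgeR adjusted p = 0.0073). Both were named after their values were seen, and their part in the values of the SRF targets was not tested. The median gene of chromosome 5, where Pdgfra lies, was at 0.104 to 0.119 (log2) in the hairpin 2 libraries relative to control 2. The part of that shift in the Pdgfra value was not tested. Hairpin 1 called 0 of 11 SRF targets, with a median log2 fold change of -0.10, and without replicate 1 it called 0 of 12, with a median of -0.08.

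Of 15 immediate early genes, which respond within minutes to serum and stress, 13 were tested in hairpin 2. Among them edgeR called 0, where 6.05% of all genes were called, and the lowest adjusted p was 0.054. With the replicate block 2 were called higher and 4 lower, against 10.2% and 10.1% of all genes. Hairpin 1 called 0 of 13, and 11 were above 0 with a median log2 fold change of 0.54. Without replicate 1, 2 of 13 were above 0 and the median was -0.42. Over all genes 52.5% were above 0 with all libraries and 48.0% without replicate 1.

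**Figure D4:**
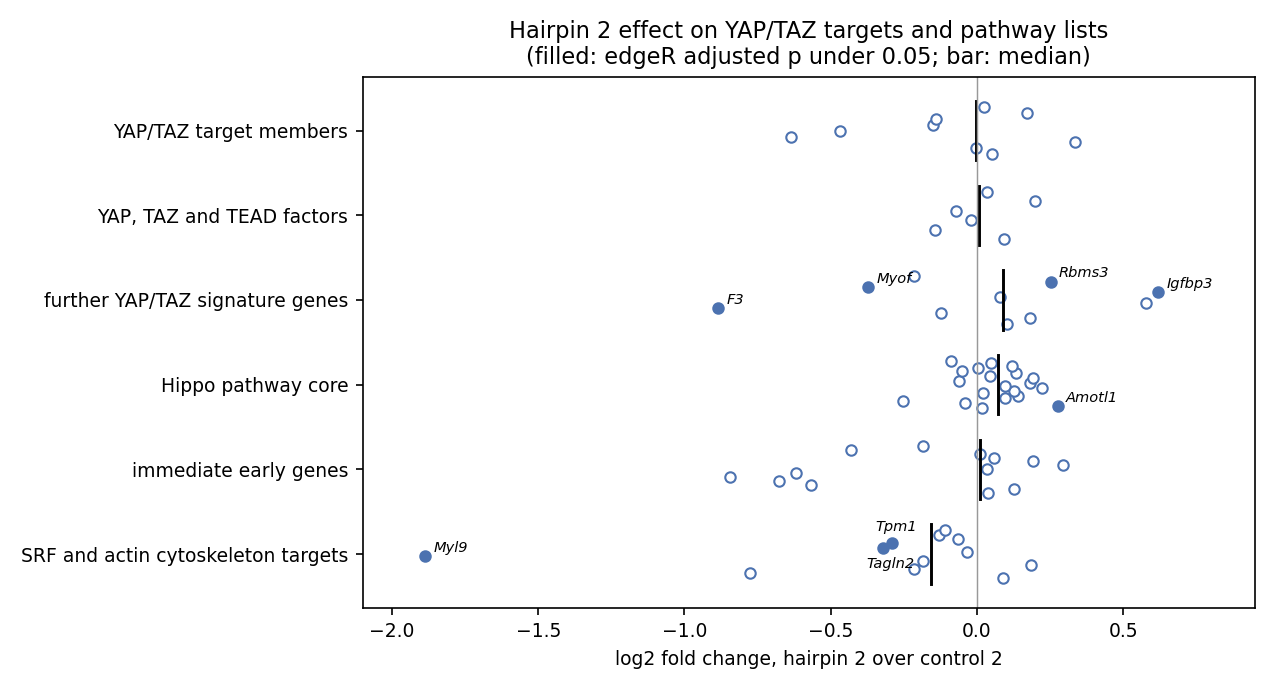
Log2 fold changes of hairpin 2 over control 2 (horizontal axis, linear) for each tested gene of the YAP/TAZ target set, the YAP, TAZ and TEAD factors and 4 pathway lists (rows, points spread vertically for clarity), with list medians as bars and genes past the edgeR threshold filled. F3 at -0.89 and Igfbp3 at 0.62 are called on opposite sides of 0, and no member of the target set is filled.

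In hairpin 1 replicate 1 the summed endothelial and immune markers were high, those of fibroblasts lay within the control range and those of goblet and Paneth cells were low; these values stand beside its high Ccn2 and Wwtr1. The 6 endothelial markers summed to 49.8, 0.785 and 1.69 CPM in hairpin 1 against 0.760 to 2.73 CPM in control 1. Nearly all of the high sum came from Cdh5, and Emcn and Cldn5 had no count in any library of set 1. The 5 immune markers summed to 54.7, 7.18 and 5.61 CPM in hairpin 1 against 9.25 to 39.1 CPM in control 1, mostly from Cd68. The 8 fibroblast markers summed to 2.96 to 3.65 CPM in hairpin 1 against 1.89 to 10.1 CPM in control 1. The part of these transcripts in the Ccn2 and Wwtr1 values was not tested.

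Replicate 4 of set 2 shared its direction across groups for several targets. Ccn2 and Crim1 were at their highest in replicate 4 of both hairpin 2 and control 2. Ajuba, Ptpn14, Lats2 and Ankrd1 were at their lowest there in both. Ccn1 went opposite ways, as replicate 4 was its lowest library in hairpin 2, at 6.72 CPM, and its highest in control 2, at 20.6 CPM. Amotl2 and Nuak2 had an extreme there in hairpin 2 only. The share of all genes with a shared extreme in replicate 4 was not counted. Summed goblet markers were also highest in replicate 4, at 230 CPM in hairpin 2 and 296 CPM in control 2, where replicates 1 to 3 had 128 to 164 CPM in hairpin 2 and 157 to 189 CPM in control 2.

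The genes whose levels ran most closely with Ccn1 and Ccn2 were sought among 9363 genes that averaged 5 CPM or more in each set, by Pearson correlation of log2 CPM centred within each set. For Ccn2 these were Ctsh, Ecm1 and Dgka, each with r = 0.97 over 14 libraries and with r = 0.90, 0.89 and 0.88 over the 13 libraries without hairpin 1 replicate 1. For Ccn1 they were Mmp7, Cela1 and Cbs, with r = 0.97, 0.97 and 0.96, and with 0.92, 0.93 and 0.89 without that library. In hairpin 1 replicate 1 Ecm1 had 51.4 CPM and Dgka 94.4 CPM, against at most 14.1 and 32.7 CPM in the other set 1 libraries. In the same replicate Cela1 had 3.20 CPM and Cbs 22.2 CPM, against at least 26.6 and 148 CPM in the others. Mmp7, which is also on the Paneth marker list, had 43.04 CPM there, against at least 128 CPM in the others. The points share libraries and groups, so these correlations are a description and carry no p.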

How the data were processed

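Per the labels, stranded poly(A) libraries were made with a TruSeq kit. The authors deposited raw counts for each gene, with a file for each library. The submitters' processing notes name bcl2fastq 2.20, FastQC, STAR, featureCounts, DESeq2 and GRCm38, and no further versions or settings were available from these sources. Symbols and exon lengths came from GENCODE M21. CPM were counts over TMM-scaled totals.

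Sets were fitted separately in R 4.3.3 by the quasi-likelihood method of edgeR 4.0.16, after filterByExpr, with TMM factors and Benjamini-Hochberg adjustment over all genes tested, at 0.05. A model of the 4 groups gave the difference and the average of both hairpins. Intervals at 95% used the fit's t quantile. The script was tested on simulated counts with the spread of each set, in which 200 genes were changed 2-fold. It recovered 0 of the 200 for hairpin 1 versus control 1, with 0 false calls. For hairpin 2 versus control 2 it recovered 165 of the 200, with 14 false calls. Alternatives used DESeq2 1.42.0, limma 3.58.1 (voom with library quality weights), DESeq2 size factors, no filter, the replicate block, and leaving out libraries.

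The members and lists were chosen with earlier results of these data known. Named by rule were the 10 members, Kmt5c, the 6 factor genes, up to 4 genes per list and hairpin with the smallest p past the threshold, and 3 genes most correlated with Ccn1 and with Ccn2. Outside this rule, Lats1, Taok1, Sav1, Mob1b, Fat1, Pdgfra and Pdgfrb were named after their values were seen. Other cell type markers were named from their lists. Same-numbered libraries deviated together in set 2 (r = 0.22, 0.14, 0.22 and 0.58, all over 0.1), a pairing that rests on the data, and not in set 1 (0.21, -0.03 and 0.26). In set 2, libraries of unlike number among replicates 1 to 3 gave r of 0.093 to 0.21, and those that set a replicate 4 against another number gave -0.37 to -0.25, so the pairing rests mainly on replicate 4.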

Additional observations from a re-analysis of the deposited data

Results flagged for a closer look

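In 48 groups of 4 libraries examined, 5 held a library whose gap to the nearest other exceeded Dixon's 95% critical value for its share of the group's range, where chance gives about 1 in 20 groups. Ajuba in hairpin 2 had its low library in replicate 4, at 165 CPM, against 227 to 235 CPM in the others. Ccn2 in control 2 had its high library in replicate 4, at 5.25 CPM, against 2.15 to 2.50 CPM in the others. Replicate 4 of control 2 was also the library apart for Yap1, at 278 CPM on the low side, and for Tead3, at 38.1 CPM on the high side. Nuak2 in control 2 had its high library in replicate 2, at 14.9 CPM, against 12.1 to 12.5 CPM in the others. Of the 5 flagged libraries, 4 were replicate 4 of set 2.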

How the results depend on the processing

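The mean levels of the 9 genes moved by less than 1 SD with DESeq2's size factors. In set 1 the count of genes called was 20 with the DESeq2 Wald test, 8 with voom and library quality weights, 187 in the model of the 4 groups, and 0 to 1 leaving out each library, and no YAP/TAZ target was called in any of these. In set 2 it was 1346 with DESeq2, 2880 with the replicate block, 2466 with voom, 2394 without both replicate 4 libraries, 120 in the model of the 4 groups and 453 to 1409 leaving out each library. Leaving out hairpin 2 replicate 1 gave 526, hairpin 2 replicate 2 gave 473, hairpin 2 replicate 3 gave 564, hairpin 2 replicate 4 gave 1409, control 2 replicate 1 gave 516 and control 2 replicate 2 gave 453. The number of targets called in set 2 was 1 with DESeq2, the replicate block, voom and without both replicate 4 libraries, and 0 to 1 leaving out each library, and it was Ccn1 each time. Its log2 fold change was -0.64, -0.65, -0.46 and -0.41 in the first 4 of these fits and ranged from -0.77 to -0.45 leaving out libraries, with edgeR adjusted p from 0.014 to 0.21. The difference between hairpins called 1 target (Lats2) without hairpin 1 replicate 1 and 0 to 1 leaving out each library. The number of genes it called, 62 with all libraries, ran from 27 to 959 in these fits and was 398 with DESeq2, and the average called 147 with all libraries, 42 to 1320 leaving out each, and 712 with DESeq2.

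Signs turned in set 1 for Ccn2 with voom (-0.89) and leaving out libraries (-0.94 to 2.03), for Nuak2 with voom (0.14) and leaving out libraries (-0.68 to 0.15), for Ccn1 (-0.68 to 0.047) and for Ankrd1 (-1.18 to 0.37). In set 2 they turned for Amotl2 with voom (0.054), without both replicate 4 libraries (0.050) and leaving out libraries (-0.071 to 0.086), for Ajuba (-0.017 to 0.16) and for Ptpn14 (-0.049 to 0.088), none of them called. The cause was not tested. The replicate block changed no other call of a target. The block in set 1, where numbers did not pair the libraries, called 0 genes. Depth limits Ankrd1 in set 2 and Axl.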
